A study of Mus musculus with 12 samples.

Results

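The mitochondrial ribosomal protein genes are the nuclear genes that code for the proteins of the ribosome inside mitochondria. They were taken as all protein-coding genes whose symbol begins with Mrpl (named for the large subunit) or Mrps (named for the small subunit) followed by a number, with 3 or more of the 12 libraries at a deposited value of 10 or higher. Of 83 genes with such a symbol, 78 were protein coding and 77 passed the value filter, 48 of the large and 29 of the small subunit, out of 13865 genes that passed the same filter. The exception, Mrpl53, was listed at 0 in all 12 libraries; 88.0% of its annotated exon bases are shared with Gm42688 on the same strand. The study measured gene expression by RNA sequencing in heart ventricles of LCHADD mice, a mouse model of long-chain 3-hydroxyacyl-CoA dehydrogenase deficiency, and of WT (wild-type) mice. Its 4 groups are WT females, LCHADD females, WT males and LCHADD males, with 3 libraries each, and the labels state that no treatment was given to any of them. No source used here gives the allele, strain and age of the mice, or says whether a library held 1 animal or a pool, so the tests measure the spread between libraries, which may be technical.

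Mitochondria make the few proteins coded by their own genome on a separate ribosome. Its RNAs come from the mitochondrial genome, while all of its proteins are coded in the nucleus, made in the cytosol and imported. Part of them descend from proteins of the bacterial ribosome and the rest were gained by mitochondria. The products of this ribosome are core subunits of the respiratory chain and ATP synthase, on which heart muscle relies for energy. Inherited variants in human MRPL3, MRPL44 and MRPS22 are known causes of cardiomyopathy.

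The 12 libraries held 15613668 to 23174936 reads. Genes of the mitochondrial genome took 27.5% to 32.7% of the reads in WT and 31.0% to 37.9% in LCHADD. Replicates of LCHADD females differed from each other more than those of the other groups, with a chi-square of the recovered reads per gene of 21.8 to 55.4 (highest between replicates 2 and 3) against 4.74 to 15.1 elsewhere, where 1 is sampling noise. Ventricular cardiomyocyte markers were abundant. Of 5 atrial markers, Myl7 and Sln were at or near 0 (0 to 5.47 and 0 to 1.14), Myl4 was at 15.5 to 32.5 and Nppa at 109 to 267, neither of which passed, and Bmp10 was higher in LCHADD, with 1.71 to 5.98 in WT and 38.3 to 101 in LCHADD; their summed level was 179 to 275 in WT and 232 to 368 in LCHADD. Of 8 ventricular cardiomyocyte markers 7 were lower in LCHADD (summed level 1028662 to 1114075 in WT and 561242 to 973354 in LCHADD), as were 6 of 6 fibroblast markers (7945 to 9465 and 5576 to 7110.5), 4 of 6 endothelial markers (10125 to 11528 and 8201 to 9453), 3 of 4 tested mural markers (9246 to 11182 and 6584 to 11061) and 5 of 5 erythroid markers (6969 to 12553 and 1913 to 4486). The 6 macrophage markers had a median log2 change of 0.16 and did not pass, and the 1 tested of 4 T and B cell markers was lower. Passing, higher and lower refer here to the limma test given in the next paragraph, in the mean of both sexes. By that test 20.6% of all 13865 tested genes were lower in LCHADD and 20.3% higher. The part of these shifts in the results below was not tested, and in whole tissue fewer cells of a type and less RNA per cell cannot be told apart. Hadha, which codes for the trifunctional protein subunit that carries the long-chain 3-hydroxyacyl-CoA dehydrogenase, had a log2 change of 0.17 ± 0.05, and its level says nothing of the altered allele.

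Small rises outnumbered falls among these genes in LCHADD ventricles. In the mean of both sexes, 27 of the 77 genes passed the test as higher in LCHADD and 6 as lower (limma on log2 of the deposited value plus 1, Benjamini-Hochberg adjusted p under 0.05 over all 13865 genes), where 40.8% of all tested genes passed in either direction, 20.3% as higher and 20.6% as lower. By subunit, 16 of 48 large subunit genes were higher and 5 lower, and 11 of 29 small subunit genes were higher and 1 lower. As shares, 35.1% of the members were higher and 7.79% lower. The median log2 change was 0.06 for the large and 0.10 for the small subunit, beside -0.0019 for all tested genes. Leaving out 1 library gave medians of 0.046 to 0.080 for the large and 0.060 to 0.13 for the small subunit, the 0.060 being without LCHADD male 3. The changes were small: 57 of the 77 lay within 1.2-fold in either direction, and 1 other, Mrps18b, reached 1.5-fold.

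**Figure D1:**
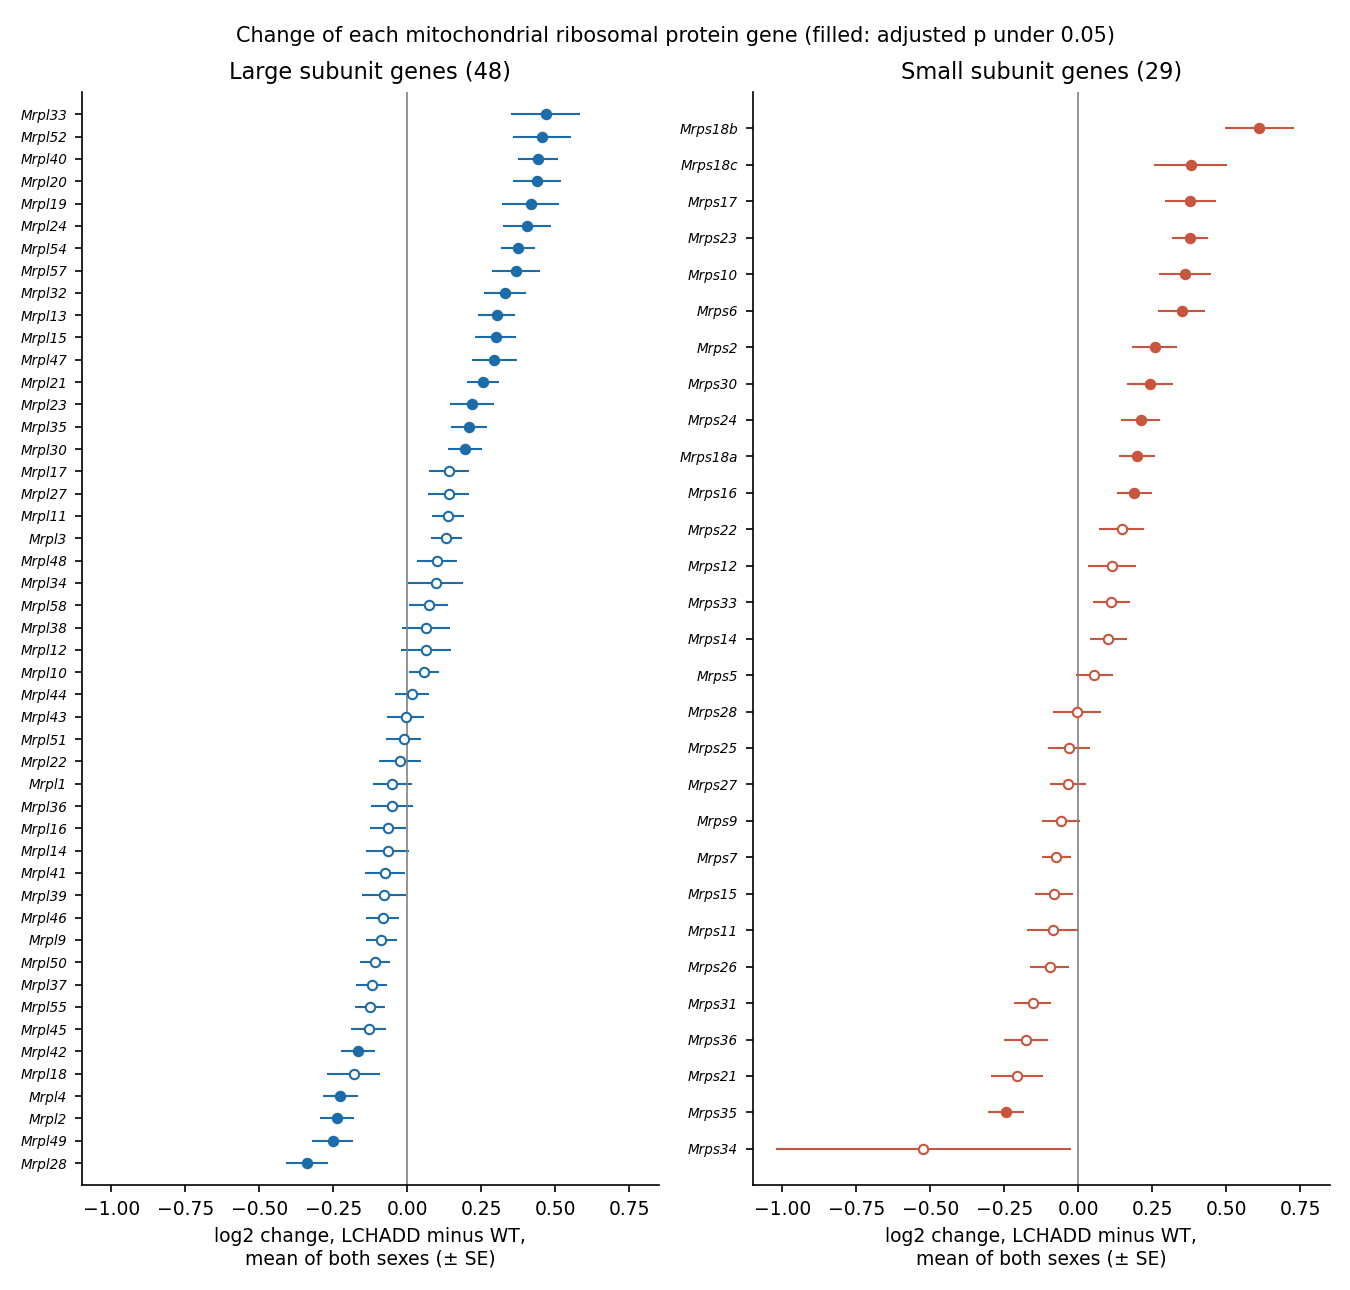
Each point is 1 gene, placed by its log2 change between LCHADD and WT averaged over both sexes, with the standard error as a line; large subunit genes are on the left, small subunit genes on the right, and filled points passed the test. The filled points right of 0 number 16 and 11, and those left of 0 number 5 and 1; Mrps34, at the bottom right, has by far the longest error line.

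Summed over all 77 genes, the members took 0.476%, 0.483% and 0.472% of the reads from nuclear genes for the WT females and 0.525%, 0.540% and 0.535% for the LCHADD females, ranges that did not overlap. For males the shares were 0.487%, 0.497% and 0.489% with WT and 0.479%, 0.487% and 0.521% with LCHADD, ranges that did. Scaled to nuclear reads, all tested genes had a median log2 change of 0.063 in females and 0.015 in males. With the deposited values these medians were -0.0035 and 2.0e-05, so part of the female rise in share belongs to the scale. Divided by each other, the summed values of the large and the small subunit genes gave 2.31 to 2.41 in the 6 WT libraries and 2.17 to 2.30 in the 6 LCHADD libraries. The member of each subunit with the most reads per length moved with that ratio. Mrpl42 made up 11.5% ± 0.456 of the large sum in WT and 10.1% ± 0.719 in LCHADD, and Mrps23 made up 11.9% ± 0.612 of the small sum in WT and 14.5% ± 0.906 in LCHADD (mean ± SD, n = 6, described without a test). With both left out, a choice made after their values were seen, the ratio was 2.35 ± 0.0201 in WT and 2.34 ± 0.0401 in LCHADD.

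**Figure D2:**
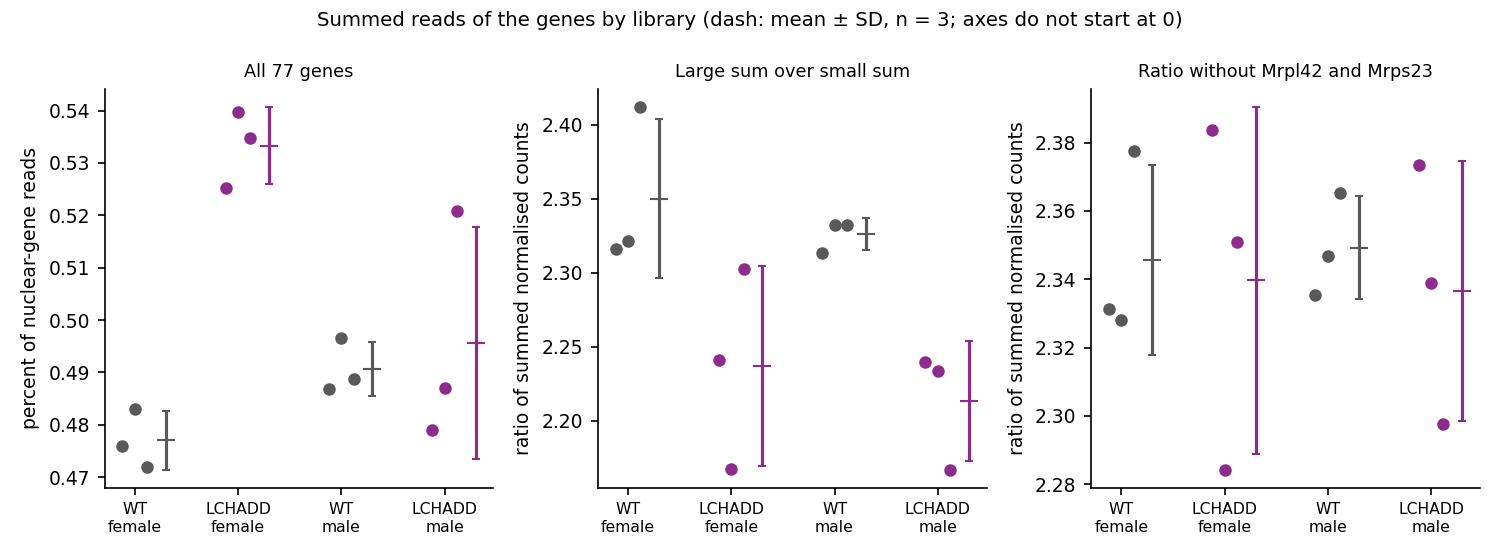
Each point is 1 library, with the mean and SD of its group beside it: reads of all 77 genes as a percent of the reads from nuclear genes (left), the summed value of large over small subunit genes (middle), and the same ratio without Mrpl42 and Mrps23 (right). The LCHADD females stand above all other groups on the left, every LCHADD library lies below every WT library in the middle, and the groups overlap on the right.

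Of the large subunit genes, Mrpl40 had the smallest adjusted p. It codes for a protein that mitochondria added to the central protuberance, the crown of the large subunit that touches the tRNAs. Its normalised read counts were 410.1, 426 and 438 for the 3 WT female libraries, 587, 601 and 562 for LCHADD females, 338, 420.5 and 403 for WT males and 485, 527 and 547 for LCHADD males. All 6 LCHADD libraries lay above all 6 WT libraries, and the log2 change was 0.44 ± 0.07 (SE, n = 6 per genotype, limma adjusted p = 1.07e-04). Mrpl54, another protein without a bacterial counterpart, read 635, 694 and 667 for WT females, 1021, 1045 and 966 for LCHADD females, 708, 711 and 627 for WT males and 734, 728 and 801 for LCHADD males. Every LCHADD library exceeded every WT library here too, by a wide margin in females and a narrow one in males, and the log2 change of both sexes together was 0.37 ± 0.06 (adjusted p = 1.10e-04).

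Mrpl20, whose bacterial counterpart binds ribosomal RNA early in assembly, was at 640.1, 573 and 496 for WT females, 864, 971 and 842 for LCHADD females, 647, 593 and 592 for WT males and 698, 626 and 831 for LCHADD males. The female groups were apart, while LCHADD male 2 lay within the WT male range; the log2 change was 0.44 ± 0.08 (adjusted p = 5.17e-04). Mrpl24, a protein near the exit of the peptide tunnel, was at 405, 423 and 407 for WT females, 621, 692 and 483 for LCHADD females, 428, 451 and 425 for WT males and 527, 487 and 579 for LCHADD males. Its genotypes did not overlap in either sex and the log2 change was 0.40 ± 0.08 (adjusted p = 0.0011); 26.3% of its exon bases are overlapped by Rrnad1 on the opposite strand, and no source used here says whether the counting used strand. Mrpl13, which has a bacterial counterpart, rose by 0.30 ± 0.06 on the log2 scale, and the mitochondrial addition Mrpl52 by 0.45 ± 0.10. In females the Mrpl13 libraries were apart, at 892 to 926 in WT and 1214 to 1349 in LCHADD. In males they overlapped, at 937 to 1042 in WT and 965 to 1199 in LCHADD. The library values of Mrpl52 were 293, 277 and 224 for WT females, 418, 400.0 and 332 for LCHADD females, 256, 260.2 and 221 for WT males and 352, 339 and 271 for LCHADD males. Within each sex its genotypes were apart, but across sexes LCHADD male 3 fell below the highest WT female. Mrpl32, which needs cleavage by an inner-membrane protease before it joins the ribosome, rose by 0.33 ± 0.07, and each of its LCHADD libraries, 316 to 378, lay above the WT libraries, 265 to 304. The other 9 large subunit genes that passed as higher, among them Mrpl33, Mrpl19 and Mrpl57, had log2 changes from 0.20 to 0.47. Mrpl19 was at 935 in LCHADD female 2 and at 568 to 671 in the other LCHADD libraries, and Gcfc2 overlaps 36.0% of its exon bases on the opposite strand.

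**Figure D3:**
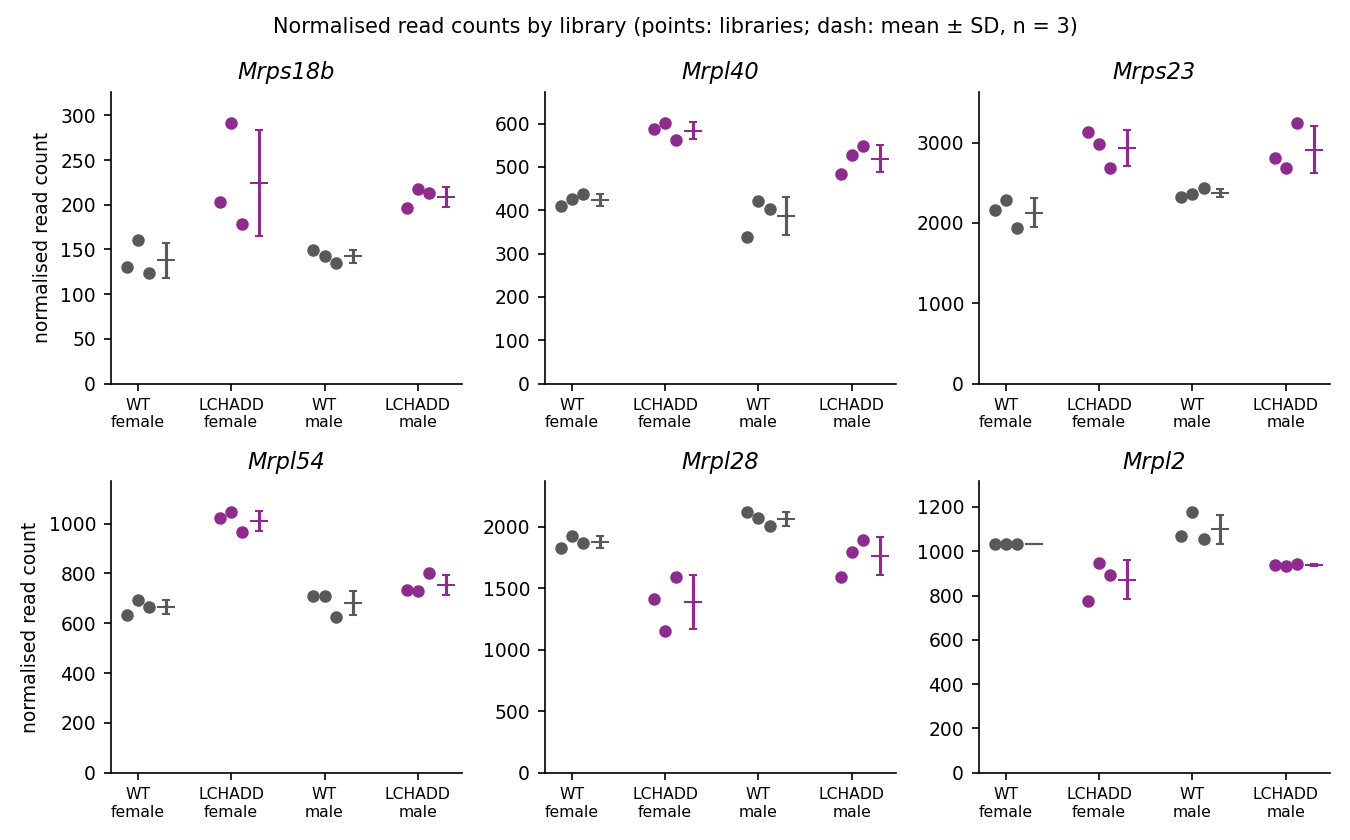
Each point is the normalised read count of 1 library, with the mean and SD (n = 3) beside it, for 4 genes that rose and 2 that fell in LCHADD. Mrps18b, Mrpl40, Mrps23 and Mrpl54 lie higher in all 6 LCHADD libraries, Mrpl2 lies lower in all 6, and Mrpl28 lies lower within each sex.

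Among the 5 large subunit genes that fell, Mrpl28, with a bacterial counterpart, was at 1830.4, 1929 and 1868 for WT females, 1413, 1156 and 1596 for LCHADD females, 2118, 2069 and 2009.8 for WT males and 1589, 1799.7 and 1890.2 for LCHADD males. The genotypes were apart within each sex, with LCHADD female 2 the lowest, and the gene fell by 0.34 ± 0.07 on the log2 scale (adjusted p = 0.0014). Mrpl2, which sits beside the peptidyl transferase centre, was at 1031, 1033 and 1034 for WT females, 775, 948 and 894 for LCHADD females, 1069.7, 1175 and 1053 for WT males and 937, 933 and 942 for LCHADD males. It was the 1 member whose 6 LCHADD libraries all lay below the 6 WT libraries, a pattern seen in 9.91% of all tested genes, and it fell by 0.24 ± 0.06 (adjusted p = 0.0041). In the other direction 10 members did not overlap, against 9.82% of all tested genes. Mrpl4, which lines the peptide tunnel, fell by 0.23 ± 0.06 and the mitochondrial addition Mrpl49 by 0.25 ± 0.07. Mrpl42, a further mitochondrial addition, fell by 0.17 ± 0.06 (adjusted p = 0.031), a call lost under 10 of 24 alternative settings.

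The remaining 27 large subunit genes did not pass. Mrpl51 and Mrpl45, which with Mrpl3 had the highest values of those that passed in no comparison of genotypes, had log2 changes of -0.01 ± 0.06 and -0.13 ± 0.06; the protein of Mrpl45 anchors the ribosome at the inner membrane. Of the genes with a known link to human cardiomyopathy, Mrpl3 narrowly missed the threshold with 0.13 ± 0.05 (limma adjusted p = 0.051), and it passed under 9 of 24 alternative settings. Mrpl44 had 0.02 ± 0.06 (adjusted p = 0.85) and Mrps22 of the small subunit 0.15 ± 0.08 (adjusted p = 0.14). Mrpl12, whose protein forms the stalk that receives the translation factors, had 0.06 ± 0.08 (adjusted p = 0.58).

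In the small subunit the member with the most reads per length, Mrps23, a protein that mitochondria added, also had the smallest adjusted p. Its counts were 2165, 2286 and 1933 for WT females, 3128, 2985 and 2688 for LCHADD females, 2323, 2364 and 2428 for WT males and 2808, 2682 and 3239.9 for LCHADD males. No LCHADD library fell within the WT range, and the log2 change was 0.38 ± 0.06 (adjusted p = 1.91e-04). Mrps17, whose bacterial counterpart is an early binder of the small subunit RNA, was at 729, 775 and 633 for WT females, 982, 1329 and 945 for LCHADD females, 787, 758 and 743 for WT males and 836, 777 and 956 for LCHADD males. LCHADD female 2 was far above the rest and LCHADD male 2 lay within the WT male range; the log2 change was 0.38 ± 0.09 (adjusted p = 0.0027). Mrps6, Mrps10 and Mrps2, all with bacterial counterparts, rose by 0.35 ± 0.08, 0.36 ± 0.09 and 0.26 ± 0.08; Gm49711 covers 19.9% of the exon bases of Mrps6 on the same strand, and the call of Mrps2 was lost under 1 of 24 alternative settings.

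Mrps35, a mitochondrial addition, was the 1 small subunit gene that fell, by 0.24 ± 0.06 (adjusted p = 0.0052), with 1149 to 1324 in WT and 941 to 1175 in LCHADD, ranges that overlapped. The remaining 17 small subunit genes did not pass. Those with the highest values, Mrps9, Mrps7 and Mrps21, had log2 changes of -0.06 ± 0.07, -0.07 ± 0.05 and -0.21 ± 0.09. Mrps12, whose protein lies at the decoding centre, had 0.11 ± 0.08. Mrps36, whose product is a component of the oxoglutarate dehydrogenase complex and not of the ribosome, had -0.18 ± 0.07 (adjusted p = 0.072). Mrps34 stood just inside the value filter, with 5 libraries at 10 or more and a highest value of 26.9; it is overlapped over 37.0% of its exon bases by Nme3 and over 63.4% by Mapk8ip3 on the other strand, and its change was -0.52 ± 0.50. All other members had at least 10 in every library. The pseudogene Mrps36-ps1, not a member, reached 10 in 2 libraries.

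Bacterial ribosomal protein S18 has 3 descendants in mammalian mitochondria, and all 3 of their genes passed as higher. So did 43.8% of the members with a bacterial counterpart and 20.3% of all tested genes. Nothing particular to this family is read from 3 genes, which were chosen with earlier results of these data known. Mrps18c codes for the protein that holds the ancestral place in the small subunit, Mrps18b for a protein elsewhere in the small subunit, and Mrps18a for a protein that is built into the large subunit in spite of its symbol. Mrps18b had the greatest change of the 77 genes. Its values were 129.9, 160.4 and 123 for WT females, 203, 291 and 179 for LCHADD females, 149, 143 and 135 for WT males and 196, 218 and 213 for LCHADD males, with LCHADD female 2 the highest and no overlap between the genotypes. The log2 change was 0.61 ± 0.12 (adjusted p = 6.35e-04); the antisense gene Gm16279 covers 30.5% of its exon bases. Mrps18c was at 109, 123 and 93.3 for WT females, 168, 117 and 171 for LCHADD females, 95.6, 115 and 85.6 for WT males and 122, 109.9 and 127 for LCHADD males. LCHADD female 2 lay within the WT female range and LCHADD male 2 within the WT male range, the log2 change was 0.38 ± 0.12 (adjusted p = 0.022), and the call was lost under 4 of 24 alternative settings. Gm43511 covers 23.2% of its exon bases on the same strand. Mrps18a was at 1047, 1043 and 1015 for WT females, 1153, 1330.2 and 1141 for LCHADD females, 1083, 1064 and 1003 for WT males and 1104, 1159 and 1311 for LCHADD males. Its genotypes did not overlap and the log2 change was 0.20 ± 0.06 (adjusted p = 0.014). Mrps30, the other gene with a small subunit symbol and a large subunit protein, rose by 0.24 ± 0.08 (adjusted p = 0.022), and lost the call under 4 of 24 alternative settings. With these 2 genes counted in the large subunit and Mrps36 left out, 18 large subunit genes were higher and 5 lower, and 9 small subunit genes were higher and 1 lower.

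Promoters of the S18 genes share a short sequence with those of many other members. RefSeq promoters of 300 bases (250 before to 50 after the start, GRCm38.p6) were matched for 68 of the 77 members and searched on both strands for CCGGAAG, a core that ETS factors bind. It occurred in 25 of the 68 (36.8%), in 19.2% of the promoters of tested genes and in 9.93% of all promoters. Of the 26 promoters of genes with a small subunit symbol, 11 had it (42.3%). The stretches around it in the 3 S18 genes, in Mrps23 and in Mrpl52 are shown as examples from genes that rose, each 5′ to 3′ on the strand named; capitals mark the match, which reads CTTCCGG where it lies on the other strand.
Mrps18b, chr17:35916391-35916407, minus strand, 44 bases after the start: cgcagtcgctCTTCCGG
Mrps18c, chr5:100798593-100798619, plus strand, 156 bases before the start: ggtcacgtgaCTTCCGGcccgggaagc
Mrps18a, chr17:46110968-46110994, plus strand, 26 bases before the start: cacccctgctCCGGAAGcggaagtgca
Mrps23, chr11:88204393-88204419, plus strand, 16 bases after the start: gccgcttccgCTTCCGGtaacagcccg
Mrpl52, chr14:54426852-54426878, plus strand, 47 bases before the start: aagatgtcggCTTCCGGttttcccggc

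The core was in 9 of 23 promoters of genes that rose (39.1%), in 16 of 41 of those that did not pass (39.0%) and in 0 of 4 of those that fell. A core bound by NRF1, a regulator of nuclear genes for mitochondrial proteins, was searched on both strands as GCGCA, then any letter, then GCGC. It occurred in 13 of the 68 (19.1%), in 11.1% of the promoters of tested genes and in 5.19% of all promoters. It was in 3 of the 23 promoters of genes that rose and in 10 of the 41 of those that did not pass. The 3 are shown, with the match in capitals; that of Mrpl57 reads so on the strand shown, that of Mrpl30 on the other strand and that of Mrpl32 on both.
Mrpl32, chr13:14613105-14613134, minus strand, 87 bases before the start: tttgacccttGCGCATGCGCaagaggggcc
Mrpl30, chr1:37890384-37890413, plus strand, 83 bases before the start: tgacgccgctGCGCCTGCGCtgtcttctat
Mrpl57, chr14:57826172-57826201, plus strand, 57 bases before the start: tttgaatcctGCGCAGGCGCagaaggcgtc
The letters TGATGNAA, of the element bound by ATF4 with its partners, were found in 0 of the 68 promoters, 2.76% of those of tested genes and 4.51% of all. These matches describe letters within the window and were not tested for binding.

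Grouped by descent, 48 of the members have a bacterial counterpart and 29 do not. Of the 48, 21 rose and 3 fell, with a median log2 change of 0.13; of the 29, 6 rose and 3 fell, with a median of -0.03. As shares, 43.8% of the 48 rose and 6.25% fell, and 20.7% of the 29 rose and 10.3% fell. Of all tested genes 20.3% rose and 20.6% fell. The share that rose among the 29 was thus near that of all tested genes, and the share that fell was lower. The 29 include Mrps36, whose product is not part of the ribosome, and Mrps34, which lies just inside the value filter. Within the large subunit the counts were 12 risen and 3 fallen of 30 with a counterpart, and 4 and 2 of 18 without. In the small subunit 9 of 18 with a counterpart rose, and 2 of 11 without rose and 1 fell. The difference between these groups was not tested. By place in the subunit, 3 of 10 genes of the central protuberance rose (Mrpl40, Mrpl33 and Mrpl35), and 3 of 7 around the exit of the peptide tunnel rose (Mrpl24, Mrpl47 and Mrpl23). Beside 20.3% of all tested genes higher, nothing particular to either place is read from groups this small. Of the 4 genes of the stalk Mrpl11 came nearest to the threshold, with 0.14 ± 0.05 (adjusted p = 0.054).

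In females alone, 17 large subunit genes were higher in LCHADD and 5 lower, and 9 small subunit genes were higher, against 33.8% of all tested genes in either direction, 16.7% higher and 17.2% lower. By limma 0 small subunit genes were lower, with 2 lower at an unadjusted p under 0.05, 1 lower by edgeR and 0 by DESeq2. Median log2 changes in females were 0.13 for the large and 0.12 for the small subunit. The count of small subunit genes was 4 without WT female 1, without WT female 3 or without LCHADD female 1, where 27.2%, 27.8% and 29.3% of all tested genes passed. With WT female 3 and LCHADD female 2 both left out, the medians were 0.075 and 0.019. Over the 3 female libraries of each genotype, 31 members had all LCHADD values above WT (22.2% of all tested genes did) and 10 all below (22.3%).

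Fewer genes passed in males with the spread shared by all 4 groups: 2 large and 3 small subunit genes were higher. Of all tested genes 15.5% passed, 7.71% as higher and 7.77% as lower. By limma 0 members were lower in males, with 5 lower at an unadjusted p under 0.05, and 0 by edgeR and DESeq2. The 5 that passed, Mrps18b, Mrpl40, Mrps6, Mrpl32 and Mrps23, had log2 changes in males of 0.55 ± 0.16, 0.43 ± 0.10, 0.36 ± 0.11, 0.33 ± 0.10 and 0.29 ± 0.09. All 5 also passed in females, 16.1% of the 31 that passed there, with 0.68 ± 0.16, 0.46 ± 0.10, 0.34 ± 0.11, 0.33 ± 0.10 and 0.46 ± 0.09 in the same order. Median log2 changes in males were 0.0060 and 0.055 for the large and small subunit. The large subunit median changed sign without WT male 2 (-0.010) or LCHADD male 3 (-0.0064), and omitting WT male 1, LCHADD male 1 or LCHADD male 2 gave 0.026, 0.023 and 0.0024. For the small subunit, omitting WT male 3 or LCHADD male 3 gave 0.030 and 0.032, and omitting LCHADD male 1 gave 0.10. Male counts turned on single libraries, and the counts of all genes moved with them: without LCHADD female 2, 9 large and 6 small subunit genes passed, beside 23.8% of all tested genes. Without any 1 of WT male 1, 2 or 3 or LCHADD male 1 they were 1 and 0 (9.5% to 10.9% of all tested genes), and without LCHADD male 3 no small subunit gene passed (10.8%). The large subunit count in males was 1 without WT female 2 (14.1%) and 5 without LCHADD female 3 (18.7%). Non-overlap in males was seen for 18 members above WT (19.6% of all tested genes) and 10 below (19.3%). Fitting only the groups compared gave 9 large and 6 small subunit genes in males. In that fit 24.1% of all tested genes passed in males and 24.8% in females, so the counts of the sexes depend on which libraries set the spread.

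Most members had changes of the same sign in both sexes. Of the 77 genes, 65 had the same sign in both sexes. That share was not counted over all tested genes, so nothing particular to the members is read from it. Pearson's r between the female and male changes was 0.83 over the 77 members and 0.82 over all 13865 genes. Genes of 1 library share its depth and scaling and are not independent. Of the 31 genes that passed in females 29 had the greater change there. The 31 were picked by their female change, which by itself favours a greater estimate there, so nothing about sex is read from this count. The test of the difference itself passed for 0 of the 77 genes by limma (0.00721% of all tested genes), with 7 at an unadjusted p under 0.05, all with the more positive change in females, and for 0 by edgeR and by DESeq2. Mrpl21, with a bacterial counterpart, came nearest. Its counts were 549, 573 and 581 for WT females, 761, 836 and 788 for LCHADD females, 612, 596 and 614 for WT males and 659.7, 593 and 607 for LCHADD males. The LCHADD females lay above all other libraries, the log2 change being 0.48 ± 0.08 in females and 0.03 ± 0.08 in males, and the difference was 0.46 ± 0.11 (adjusted p = 0.19).

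**Figure D4:**
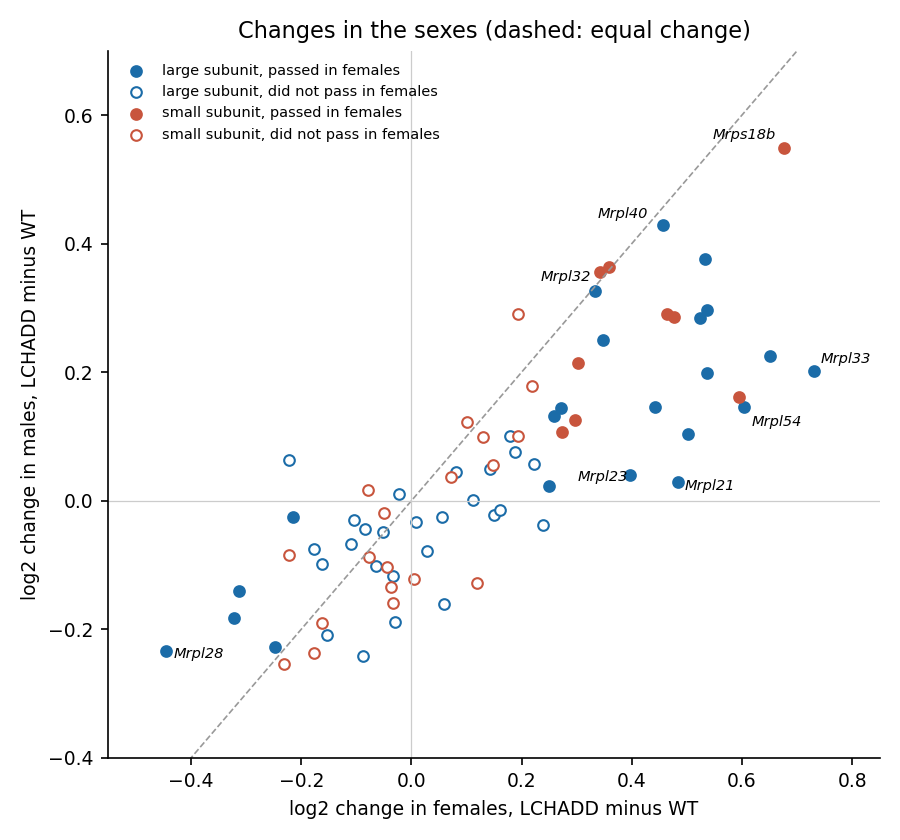
Each point is 1 of 76 genes (Mrps34 is left out for its low values), placed by its log2 change in females (horizontal) and in males (vertical); filled points passed in females, and the dashed line marks equal change. Most filled points lie below the line on the right, with Mrpl33, Mrpl54, Mrpl21 and Mrpl23 the farthest from it among those named.

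Between WT females and WT males 0 members differed by limma (0.245% of all tested genes did, 0.0938% higher and 0.151% lower in females), with 3 at an unadjusted p under 0.05, all lower in females, and 0 by edgeR and DESeq2. Between LCHADD females and LCHADD males 5 large subunit genes were higher in females (5.77% of all tested genes passed, 2.65% as higher and 3.12% as lower in females). They were Mrpl54, Mrpl23, Mrpl21, Mrpl33 and Mrpl48, with log2 differences of 0.42 ± 0.08, 0.53 ± 0.11, 0.36 ± 0.08, 0.61 ± 0.16 and 0.35 ± 0.09. Mrpl23, at the tunnel exit, was at 722, 834 and 863 for WT females, 1054, 1152 and 978 for LCHADD females, 735, 636 and 771 for WT males and 733, 654 and 818 for LCHADD males. LCHADD females were above all other libraries, and its change in the mean of both sexes, 0.22 ± 0.08 (adjusted p = 0.031), was lost under 5 of 24 alternative settings; a pseudogene, Mrpl23-ps1, has its own values and could have taken or given reads. Mrpl33, a small protein with a bacterial counterpart, was at 151, 199 and 165 for WT females, 335, 253 and 270.4 for LCHADD females, 170.3, 179 and 138 for WT males and 153, 190.0 and 219.6 for LCHADD males. Here too the LCHADD females lay highest. The count of 5 became 0 without LCHADD male 2 (1.55% of all tested genes) and 9 without LCHADD female 3 (11.8%). It was 3 without WT female 1, LCHADD female 1, WT male 1, WT male 2 or LCHADD male 1 (2.79% to 4.5%). DESeq2 gave 8 (7.83%).

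Genes that build and serve this ribosome passed in shares near those of all tested genes, of which 20.3% were higher and 20.6% lower. Of 5 further mitoribosome proteins that carry other names, Chchd1 rose, by 0.31 ± 0.07, and Ptcd3, with the highest values, had -0.02 ± 0.06. Of 28 assembly factors 6 rose (21.4%) and 4 fell (14.3%). They include Mtg1, a GTPase of large subunit assembly, with 0.35 ± 0.07, and the RNA helicase Ddx28, with 0.38 ± 0.09; Rpusd4, which modifies the large ribosomal RNA, fell by 0.35 ± 0.08 and Rbfa, a small subunit assembly factor, by 0.28 ± 0.07. Of 18 tested translation factors 5 rose (27.8%) and 3 fell (16.7%). The elongation factor gene Tufm was at 3495, 3435 and 3238 for WT females, 2395, 2689 and 2572 for LCHADD females, 3708, 3552 and 3751 for WT males and 3209.8, 3443 and 3124 for LCHADD males. Within each sex all LCHADD libraries lay below all WT libraries, and the gene fell by 0.29 ± 0.05 (adjusted p = 2.23e-04). Lrpprc, which binds mitochondrial messenger RNAs, rose by 0.27 ± 0.06, the aminopeptidase gene Metap1d by 0.28 ± 0.06 and Gatb, part of the enzyme that completes glutaminyl-tRNA, by 0.23 ± 0.05.

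Both RNAs of the ribosome, examined after their values were seen, were lower in LCHADD. mt-Rnr1, the small subunit RNA, was at 43363, 41007 and 33039 for WT females, 20844, 27447 and 25354 for LCHADD females, 37265, 41137 and 35091 for WT males and 25952, 30948 and 28103 for LCHADD males. All LCHADD libraries lay below all WT libraries and it fell by 0.55 ± 0.08 on the log2 scale (adjusted p = 1.09e-04). mt-Rnr2, the large subunit RNA, was at 82847, 83205 and 78326 for WT females, 42493, 53447 and 53836 for LCHADD females, 84041, 98028 and 77712 for WT males and 69865, 85137 and 73822 for LCHADD males. It fell by 0.45 ± 0.08 in the mean of both sexes, with the genotypes apart in females and overlapping in males. No source used here says how RNA was selected before sequencing, a step on which rRNA counts depend.

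Of 79 cytosolic ribosomal protein genes 76 rose and 1 fell, with a median log2 change of 0.71, beside 0.06 over the 77 mitochondrial ones. Of 83 nuclear genes for the respiratory chain and ATP synthase 6 rose and 35 fell, with a median of -0.10. Over all tested genes 20.3% rose and 20.6% fell, with a median of -0.0019.

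**Figure D5:**
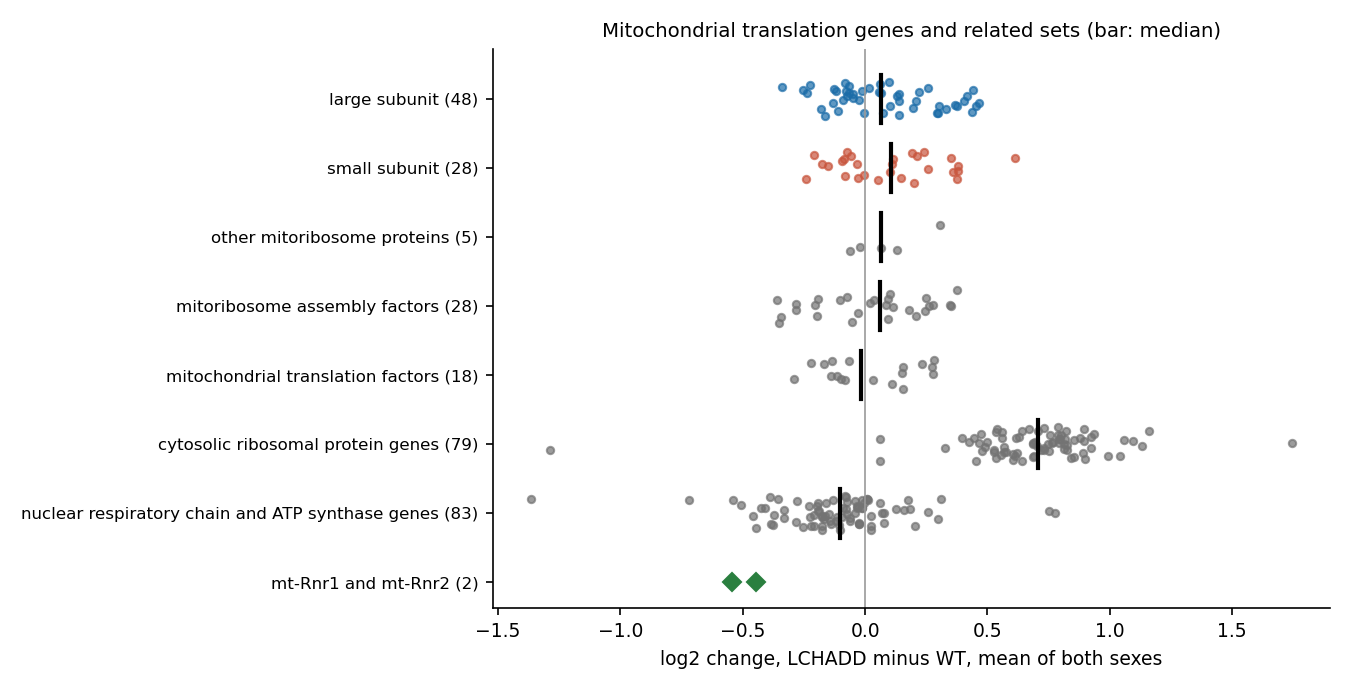
Each point is 1 gene placed by its log2 change between LCHADD and WT in the mean of both sexes, with the median of each set as a bar and random vertical scatter; Mrps34 is left out. The 2 mitochondrial ribosomal sets straddle 0, the cytosolic ribosomal proteins centre on 0.71, and both mitochondrial ribosomal RNAs lie below -0.4.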

How the data were processed

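The authors deposited 1 table of normalised gene counts of all 12 libraries, a signal in which each library's counts were divided by 1 size factor; the submitters' processing notes name bcl2fastq, DESeq2 and GRCm39, and the sources used here name no aligner or counter. Every value was a whole multiple of its library's step within 0.01, so reads were recovered. Symbols and biotypes came from GENCODE vM21 (51633 of 51912 IDs). Genes with a value of at least 10 in at least 3 libraries were tested with limma 3.58.1 (R 4.3.3, eBayes with trend) on log2(value + 1), a scale that understates changes of low genes, with 4 group means and Benjamini-Hochberg adjustment over 13865 genes. The members, the gene lists and the tests were chosen with earlier results of these data known. Alternatives were edgeR 4.0.16 and DESeq2 1.42.0 on the recovered reads, other scalings, filters, weights and added values, and leaving out libraries; the fit was checked on simulated counts. Named genes are, per subunit, up to 6 with the smallest adjusted p in each direction, up to 3 of the most abundant that passed in no genotype comparison, those that passed between the sexes, those at the value filter, and 10 fixed members (Mrpl12, Mrpl3, Mrpl44, Mrps22, Mrps12, Mrps18a, Mrps18b, Mrps18c, Mrps30 and Mrps36), with up to 4 passed and 1 other of each further list. Others were named after their values were seen.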

Additional observations from a re-analysis of the deposited data

How the results depend on the processing

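Of 33 named genes that passed in the mean of both sexes, 28 kept direction and call under each of 24 alternatives, none reversed, and 24 of 792 gene-by-setting fits lost the call. Among named genes that did not pass, Mrpl3 gained the call under 9 of 24 alternatives, Mrpl45 and Mrps21 under 3 each, Mrps36 under 2 and Mrps9 under 1. With array quality weights more genes passed in general: 32 large subunit genes in the mean (51.5% of all tested genes), 14 small in females (50.6%), 10 large and 7 small in males (26%), 4 of the 77 in the difference between sexes (5.4%), 22 between LCHADD females and males (22.5%), and 31 further translation genes (19 without weights). Requiring 1.2-fold as well left 13 large, 6 small and 11 further genes, and the share of all tested genes at that fold is not given here. Scaling by nuclear reads moved the median of all genes by 0.04 in the mean and 0.06 in females. Large subunit medians became 0.10 and 0.19, and the small subunit median 0.19 in females. With that scaling 8 genes passed between LCHADD females and males (5.5% of all tested genes). Fitting only the groups compared gave 14 large and 4 small in females (24.8%) and 9 and 6 in males (24.1%). Without both WT female 3 and LCHADD female 2, counts in males were 9 and 6 (23.9%) and medians in females 0.075 and 0.019. Without a filter on low values 1 large and 1 small subunit gene passed in males (7.07% of the 25687 genes with any read). Between LCHADD females and males 3 passed without that filter (2.23%), and DESeq2 with the filter gave 8 (7.83% of all tested genes).

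Leaving out 1 library gave 16 to 24 large and 4 to 9 small in females (medians 0.091 to 0.14 and 0.094 to 0.13), 1 to 9 and 0 to 6 in males (medians -0.010 to 0.026 and 0.030 to 0.10), and 0 to 9 between LCHADD females and males. In these fits 26.9% to 36.6% of all tested genes passed in females, 9.5% to 23.8% in males and 1.55% to 11.8% between LCHADD females and males. Signs changed for genes that did not pass: Mrpl51 (0.029 with nuclear scaling, 0.035 with weights, 0.0028 without both libraries, -0.046 to 0.030 leaving out 1), Mrpl12 (-0.0054 to 0.12 leaving out 1), Mrpl44 (-0.035 with weights, -0.029 without both, -0.011 to 0.040 leaving out 1) and Ptcd3 (0.022 with nuclear scaling, -0.050 to 0.025 leaving out 1). The cause was not tested. A filter at 50 gave no value for Mrps34.

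Replicate numbers were tried as a replicate block. Over all tested genes, 0 of 18 same-numbered pairs of libraries correlated above 0.1 in their deviations from the group mean (r -0.11 to 0.05). Whether the numbers mark a shared step that acts on fewer genes was not tested. With the block 22 large and 12 small subunit genes passed in the mean (39.5% of all tested genes) and 22 and 6 in females (32.5%). In males 3 and 2 passed (14.5%), and between LCHADD females and males 3 (3.9%).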

Other observations

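In the GENCODE vM21 annotation 33 of the 77 members start within 1000 bases of a protein-coding gene read in the opposite direction, and 28 of these partners were tested, of which 6 rose (21.4%) and 3 fell (10.7%), beside 20.3% and 20.6% of all tested genes. These form 27 distinct pairs, since Mrpl46 and Mrps11 are partners of each other. Both genes passed in 5 pairs. They moved the same way in 2, Mrpl13 with Mtbp (0.59 ± 0.15) and Mrpl32 with the proteasome gene Psma2 (0.15 ± 0.05), and opposite ways in 3. Mrps18b rose while Ppp1r10, whose start lies 45 bases away, fell by 0.57 ± 0.12; Mrpl54 rose while Apba3, 26 bases away, fell by 0.33 ± 0.07; and Mrpl49 fell while the ribosomal protein gene Fau, 59 bases away, rose by 0.34 ± 0.07. Transcript length had an r of -0.06 with the change over the 77 members and -0.08 over 12727 protein-coding genes.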
